A study of Homo sapiens with 26 samples.

Results

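The HOX genes are homeodomain transcription factors that lie in 4 clusters, and the data describe all 39 of them in 3 human pancreatic ductal adenocarcinoma cell lines in which the nuclear receptor HNF4α was raised or lowered. Members were taken by symbol only, as HOXA, HOXB, HOXC or HOXD followed by a number, so antisense and other RNA genes of the clusters were left out. This gave 39 of the 62778 gene identifiers in the count tables, with 11 in HOXA, 10 in HOXB, 9 in HOXC and 9 in HOXD. HNF4A is transcribed from 2 promoters, P1 and P2, which give isoforms with different amino ends, and the study compared these isoforms.

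Panc10.05 and BxPC3 carried doxycycline-inducible constructs. Panc10.05 received 25 ng/mL doxycycline for the P1-a2 isoform, 12.5 ng/mL for P2-a8 and 25 ng/mL for its control, which expressed GFP. BxPC3 received 500 ng/mL in each group, for P1-a2, P2-a8 and an empty-vector control. Each of these groups had 2 libraries, and both controls are written NC. In AsPC-1 the endogenous gene was repressed by CRISPR interference, in which guides bring an inactive Cas9 repressor to a promoter. Guides sgP1E and sgP1J formed the sgP1 group, sgP2D and sgP2G the sgP2 group, and sgDual2 and sgDual3, aimed at both isoforms, the sgDual group, with 4 libraries in each. The non-targeting control, sgNC, had 2 libraries. Within a line all groups shared the cell line and, in Panc10.05 and BxPC3, exposure to doxycycline. No label states that the replicates were separate cultures, so the p-values measure only the spread between these samples, which may be technical. In AsPC-1 the 4 libraries of a guide group were fitted as replicates, with no term for guide. Its p-values therefore take libraries, not guides, as the unit.

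Library totals ran from 26079388 to 50662077 counts over the 26 libraries, and levels are given as CPM, which are counts relative to the library total after TMM scaling. HNF4A stood at 0.24 and 0.058 CPM in the Panc10.05 controls, at 10.7 and 13 with P1-a2 and at 37.6 in both P2-a8 libraries. In BxPC3 it stood at 1.08 and 0.464 CPM in the controls, 9.76 and 11.6 with P1-a2, and 12.6 and 14.2 with P2-a8. In AsPC-1 it stood at 206 and 220 CPM with sgNC, 109 to 146 with sgP1, 76.7 to 93.9 with sgP2 and 3.19 to 13.6 with sgDual. The gene-level total does not separate the isoforms. The ductal keratin KRT19 was at 581 CPM or more in every library and the leukocyte marker PTPRC at no more than 0.137 CPM. KRT7, another ductal keratin, was at 0.503 to 8.47 CPM in AsPC-1, and the fibroblast gene LUM was at 130 to 299 CPM there, while DCN, another fibroblast gene, reached no more than 0.543 CPM in any line. CD68, another leukocyte marker, was at 6.25 to 9.35 CPM in Panc10.05 and 3.15 to 6.06 in AsPC-1. The fibroblast gene COL1A1 was at 4.26 to 6.99 CPM in Panc10.05 and 10.5 to 12 in BxPC3. In BxPC3 the endothelial genes CDH5 and VWF reached 5.24 and 4.12 CPM, and the neuronal gene SYT1 10.3. COL1A2, PDGFRB, CD3E, PECAM1 and RBFOX3, of the same cell types, reached no more than 0.599 CPM in any line. The part of cells expressing LUM or these markers in the results was not tested.

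HOX proteins give cells their position along the body axis. Genes at one end of each cluster, with low paralog numbers, are switched on early and act towards the head, and those at the other end act towards the tail and in the limbs. Their clusters are held silent by Polycomb complexes and opened by Trithorax proteins, the low-numbered genes respond to retinoic acid in the embryo, and HOX proteins bind DNA together with TALE homeodomain partners of the PBX and MEIS families. Paralogs 1 to 4 are called anterior here, 5 to 8 central and 9 to 13 posterior. The HOXA members lie on chromosome 7. On GRCh38 the HOXB members span chr17:48528526-48729178, the HOXC members chr12:53938765-54056030 and the HOXD members chr2:176092891-176190907.

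Promoter windows were available from RefSeq (GRCh38.p14) for 20 of the 39 members, in 27 windows of 300 bases, 250 before and 50 after an annotated start. Those of HOXA3, HOXA9 and HOXA10 are shown because these genes rose together in AsPC-1 when HNF4A was repressed with the sgDual guides. They are on the minus strand and read 5′ to 3′ along the gene, and capitals mark TATAAA, which appears as TTTATA where the motif lies on the other strand.
HOXA3, the first of 7 starts, chr7:27152534-27152833: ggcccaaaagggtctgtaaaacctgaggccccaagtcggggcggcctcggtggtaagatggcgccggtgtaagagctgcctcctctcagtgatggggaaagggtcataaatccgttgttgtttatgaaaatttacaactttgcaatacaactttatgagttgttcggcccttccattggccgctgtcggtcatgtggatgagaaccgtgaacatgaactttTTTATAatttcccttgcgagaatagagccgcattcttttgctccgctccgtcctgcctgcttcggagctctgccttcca
HOXA9, the only start listed, chr7:27165488-27165787: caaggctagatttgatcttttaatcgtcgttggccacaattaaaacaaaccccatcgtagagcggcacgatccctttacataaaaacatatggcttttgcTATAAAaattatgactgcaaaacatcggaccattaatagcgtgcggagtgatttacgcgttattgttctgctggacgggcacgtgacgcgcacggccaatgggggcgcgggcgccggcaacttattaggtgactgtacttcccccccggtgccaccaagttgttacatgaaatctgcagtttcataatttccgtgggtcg
HOXA10, the first of 2 starts, chr7:27179812-27180111: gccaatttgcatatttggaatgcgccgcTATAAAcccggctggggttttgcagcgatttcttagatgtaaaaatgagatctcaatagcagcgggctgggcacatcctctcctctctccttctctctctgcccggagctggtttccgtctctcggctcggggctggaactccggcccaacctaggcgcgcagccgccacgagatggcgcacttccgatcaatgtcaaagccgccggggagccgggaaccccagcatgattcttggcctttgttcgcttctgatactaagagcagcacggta
HOXA10, the second of 2 starts, chr7:27174271-27174570: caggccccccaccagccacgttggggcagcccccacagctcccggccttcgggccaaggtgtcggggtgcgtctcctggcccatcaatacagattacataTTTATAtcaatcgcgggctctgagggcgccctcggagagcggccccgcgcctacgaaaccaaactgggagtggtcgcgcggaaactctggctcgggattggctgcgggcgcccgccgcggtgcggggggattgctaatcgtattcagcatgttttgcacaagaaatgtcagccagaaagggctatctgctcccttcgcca
The motif begins 29 bases before the start of HOXA3 and 150 before that of HOXA9. In HOXA10 it begins 222 bases before the first start and 150 before the second. Searched on both strands, TATAAA was in 5 of the 27 HOX windows (18.5%) and in 11.5% of the 35116 windows of all genes. The HNF4-type motifs CAAAGTCCA and CAAAGGTCA, and the nuclear receptor half-site AGGTCA that the latter contains, were in none of the 27 HOX windows. Among all windows they were in 0.384%, 0.407% and 13.8%. HOXB1 was the only HOXB member with a window, and HOXC8 and HOXC13 had none. The HOXB genes called below, HOXC8 and HOXC13 were therefore not searched. HOXC4 and HOXC5 have the same window.

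In the control libraries the HOXA and HOXB clusters were active in all 3 lines, HOXC was largely on in BxPC3 and AsPC-1, and HOXD was at or near 0 throughout. A member was counted as expressed at 1 CPM or more in every control library of a line. This held for 12 of 39 members in Panc10.05, 19 in BxPC3 and 21 in AsPC-1. By cluster the counts were 6 HOXA, 5 HOXB and 1 HOXC gene in Panc10.05. In BxPC3 they were 6, 6 and 7, and in AsPC-1 6, 9 and 6. No HOXD gene passed in any line, and the highest HOXD count in any library was 7 in Panc10.05, 11 in BxPC3 and 4 in AsPC-1. HOXD4, HOXD8, HOXD9, HOXD10 and HOXD13 had 3 counts or fewer in each of the 26 libraries, a floor of 0.0585 to 0.116 CPM. The summed control level of the 39 genes was 85.7 CPM in Panc10.05, 179 in BxPC3 and 460 in AsPC-1 (means of 2 libraries). HOXB gave 52.6% of that sum in Panc10.05 and 54.2% in AsPC-1, while HOXA gave 57.5% in BxPC3. The lines were sequenced as separate projects, so line and project cannot be told apart, and levels are set side by side without a test.

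A set of 9 genes was common to the expressed sets of all 3 lines and formed 2 groups, HOXA2, HOXA3, HOXA9 and HOXA10 in HOXA and HOXB3, HOXB5, HOXB6, HOXB7 and HOXB9 in HOXB. HOXA5 and HOXA6 were expressed in Panc10.05 controls alone, and HOXA11, HOXB2, HOXB4 and HOXB8 in AsPC-1 controls alone. In the controls of no line were HOXA4, HOXA7, HOXB1, HOXC5, HOXC12 or the 9 HOXD genes expressed. Genes were compared with each other only as CPM per kb of merged exon (control means of 2 libraries). On that scale HOXB7, a central HOXB gene, ranked first in Panc10.05 at 13.1 and second in BxPC3 at 12.7 and in AsPC-1 at 17.9. HOXA3, an anterior gene, ranked first in BxPC3 at 13.4, above 4.01 in Panc10.05 and 7.31 in AsPC-1. HOXB6 ranked first in AsPC-1 at 22.5 against 3.40 and 3.08 in Panc10.05 and BxPC3.

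The clusters were not on as unbroken blocks. HOXB8 stood at 0.0904 and 0.0762 CPM per kb in Panc10.05 and BxPC3, between HOXB7 at 13.1 and 12.7 and HOXB9 at 2.33 and 1.157. In AsPC-1 HOXB8 was the third of all members at 15.0. At the posterior end of HOXA, HOXA11 was at 0 in the Panc10.05 and BxPC3 controls and at 8.21 in AsPC-1, and HOXA13, a gene of the limbs and hindgut, was at 0.114, 0.651 and 9.34. Within HOXC, Panc10.05 had only HOXC13 expressed, at 1.08, whereas HOXC10 was at 0.0744, 1.39 and 12.7 in Panc10.05, BxPC3 and AsPC-1. HOXC13 went the other way across the lines, at 1.08, 0.637 and 0.211.

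**Figure D1:**
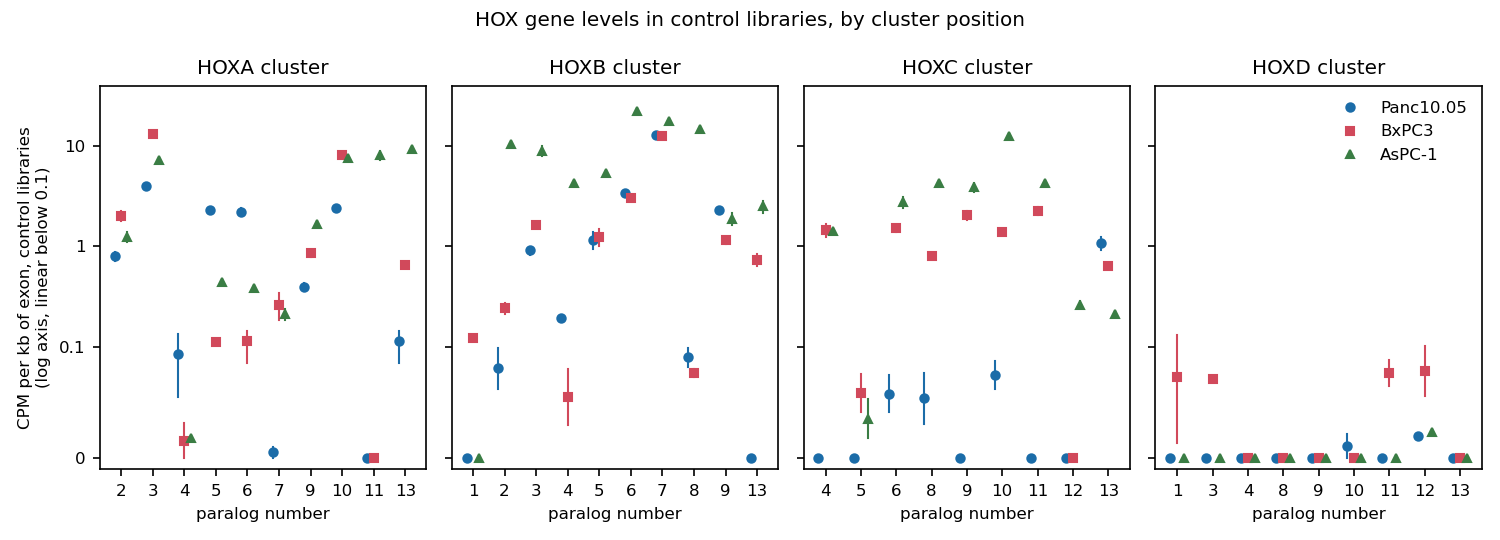
HOX levels in the control libraries of Panc10.05, BxPC3 and AsPC-1, as CPM per kb of merged exon (vertical, log axis that is linear below 0.1) against paralog number, 1 panel for each cluster. Points are means of 2 libraries and lines join the 2 values. HOXD points lie at the foot of the plot in all lines, and AsPC-1 lies above the others at HOXB2, HOXB4, HOXB8, HOXA11, HOXA13 and HOXC10.

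In Panc10.05, P1-a2 changed single genes in opposite directions within the same cluster. Of 18 members tested, 3 rose (HOXA3, HOXB6, HOXB7) and 5 fell (HOXA10, HOXA13, HOXB3, HOXC6, HOXC13) against the control, by edgeR's quasi-likelihood test with Benjamini-Hochberg adjustment over all 17247 genes tested. Among all genes 31.5% were higher and 30.5% lower, so neither count of members stands above the background. The calls of HOXA13 and HOXC6, both thinly covered, were lost with DESeq2 (adjusted p = 0.104 and 0.194). That of HOXA13 was also lost without P1-a2 replicate 1 or control replicate 2, and that of HOXC6 without P1-a2 replicate 2 or control replicate 1 and with no filter on low counts. The median log2 fold change of the 18 was -0.27, and that of all genes was 0.02.

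HOXA3, an anterior gene that patterns the hindbrain and the pharyngeal region, was at 16.9 and 17.6 CPM in the controls, 36.4 and 33.3 with P1-a2 and 16.6 and 21.5 with P2-a8. Both P1-a2 libraries lay above all the others. Against the control HOXA3 rose by 1.01 ± 0.095 on the log2 scale (± SE here and throughout, adjusted p = 1.73e-11) and against P2-a8 by 0.88 ± 0.0937 (adjusted p = 1.16e-09). In these bulk samples a change in the share of cells expressing a gene and a change in its RNA per cell cannot be told apart. Of the HOXA3 exon bases, 15.4% are overlapped on the opposite strand by HOXA-AS2 and HOXA-AS3, and whether counting used strand is not given in the sources used here.

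HOXA10, a posterior gene best known from the uterus and the limbs, moved the other way. It was at 9.10 and 9.04 CPM in the controls, 6.01 and 6.52 with P1-a2 and 10.13 and 8.0 with P2-a8, and its P1-a2 libraries lay below the other 4. It fell by 0.53 ± 0.125 on the log2 scale (adjusted p = 0.00031). HOXB3, an anterior hindbrain gene, was at 6.20 and 7.42 CPM in the controls, 3.59 and 4.24 with P1-a2 and 7.07 and 6.82 with P2-a8. It fell by 0.79 ± 0.143 against the control (adjusted p = 7.55e-06) and by 0.82 ± 0.142 against P2-a8 (adjusted p = 5.95e-06). Of its exon bases 7.9% are shared with HOXB4 and HOXB6. HOXC13, a posterior gene known from hair follicles and nails, was at 2.23 and 2.98 CPM in the controls, 1.18 and 1.30 with P1-a2 and 2.37 and 2.31 with P2-a8. It fell by 1.05 ± 0.223 (adjusted p = 7.32e-05), and again the P1-a2 libraries were the lowest.

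HOXB6 and HOXB7, central HOXB genes, passed the test with either isoform, in comparisons that share the control libraries. HOXB6 was at 8.50 and 9.21 CPM in the controls, 14.3 and 12.5 with P1-a2 and 15.3 and 14.6 with P2-a8, with no overlap between controls and either isoform. Its log2 fold change was 0.60 ± 0.107 with P1-a2 (adjusted p = 5.01e-06) and 0.76 ± 0.106 with P2-a8 (adjusted p = 9.94e-08). HOXB7 was at 19.4 and 20.5 CPM in the controls, 24.3 and 24.7 with P1-a2 and 25.5 and 21.9 with P2-a8. The increase was 0.30 ± 0.0877 with P1-a2 (adjusted p = 0.00333) and 0.25 ± 0.0881 with P2-a8 (adjusted p = 0.0168). Without control replicate 1 the adjusted p of HOXB7 was 0.0505 with P1-a2 and 0.104 with P2-a8, and without P2-a8 replicate 1 the latter was 0.365. DESeq2 gave HOXB7 an adjusted p of 0.0823 with P2-a8. The P2-a8 cells received less doxycycline than the control.

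P2-a8 itself raised 4 of 18 members and lowered none. The 4 were HOXB2, HOXB5, HOXB6 and HOXB7. Among all genes 23.7% were higher and 22.5% lower, so the count of higher members is close to the background. HOXB5 was at 1.92 and 2.84 CPM in the controls and 3.38 and 3.75 with P2-a8, a log2 fold change of 0.59 ± 0.19 (adjusted p = 0.00949). Without control replicate 1 only HOXB6 remained past the threshold, and without P2-a8 replicate 2 the count was 2. HOXB2 rested on 6 and 8 reads in the controls and 22 and 15 with P2-a8, and lost its call when any 1 of these 4 libraries was left out.

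Directly compared, P1-a2 was higher than P2-a8 for HOXA3 and lower for 6 members, HOXA10, HOXA13, HOXB3, HOXC6, HOXC10 and HOXC13, while 22.2% of all genes were higher and 24.7% lower. These cells also differed in doxycycline dose (25 and 12.5 ng/mL) and in HNF4A level. Isoform, dose and level change together in this comparison and cannot be told apart. HOXA13, HOXC6 and HOXC10 were thinly covered. HOXA13 had 18 and 25 reads in the controls, 5 and 14 with P1-a2 and 22 and 19 with P2-a8. HOXC6 had 11 and 5, 3 and 1, and 15 and 3 reads in the same order, and HOXC10 had 4 and 6 with P1-a2 and 14 and 13 with P2-a8. Without P2-a8 replicate 1 the count of 7 dropped to 3, and HOXA10 then had an adjusted p of 0.0591. Without P1-a2 replicate 1 the count was 4.

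BxPC3 showed fewer changes. P1-a2 lowered HOXA3 and HOXB3 and raised no member of 24 tested, where 17.1% of the 17635 genes tested were higher and 14.9% lower. HOXB3 was at 12.7 and 11.6 CPM in the controls, 7.47 and 7.92 with P1-a2 and 12.4 and 9.65 with P2-a8. Its P1-a2 libraries were the lowest of the 6, and it fell by 0.66 ± 0.138 on the log2 scale (adjusted p = 0.00371). HOXA3 was at 58.6 and 56.5 CPM in the controls, 46.4 and 45.1 with P1-a2 and 53.0 and 47.4 with P2-a8. With P1-a2 this was a drop of 0.33 ± 0.0709 against the control (adjusted p = 0.00422). HOXA-AS2, which overlaps HOXA3 on the opposite strand, was also lower, with a log2 fold change of -0.545 ± 0.114 (adjusted p = 0.00352). Without a known strand setting the reads of their shared bases cannot be told apart. Samples with the same replicate number deviated together in this line. With the replicate number as a block 5 members fell, the others being HOXA10 (adjusted p = 0.00448), HOXC4 (0.0496) and HOXC8 (0.0373). Without P1-a2 replicate 1 the count was 4.

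With P2-a8, 0 of the 24 members passed edgeR's test in BxPC3, where 4.3% of all genes were higher and 2.69% lower. At an unadjusted p under 0.05 there were 3, and DESeq2 called 0. The replicate block called 2 lower, HOXA3 with a log2 fold change of -0.20 (adjusted p = 0.0225) and HOXA10 with -0.25 (adjusted p = 0.0319). Between the isoforms HOXB3 alone was lower with P1-a2, by -0.52 ± 0.138 (adjusted p = 0.0196), where 11.6% of all genes were higher and 10.8% lower. That count was 3 with the block, which added HOXA13 and HOXC8, and 0 without P1-a2 replicate 1, P1-a2 replicate 2 or P2-a8 replicate 1.

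**Figure D2:**
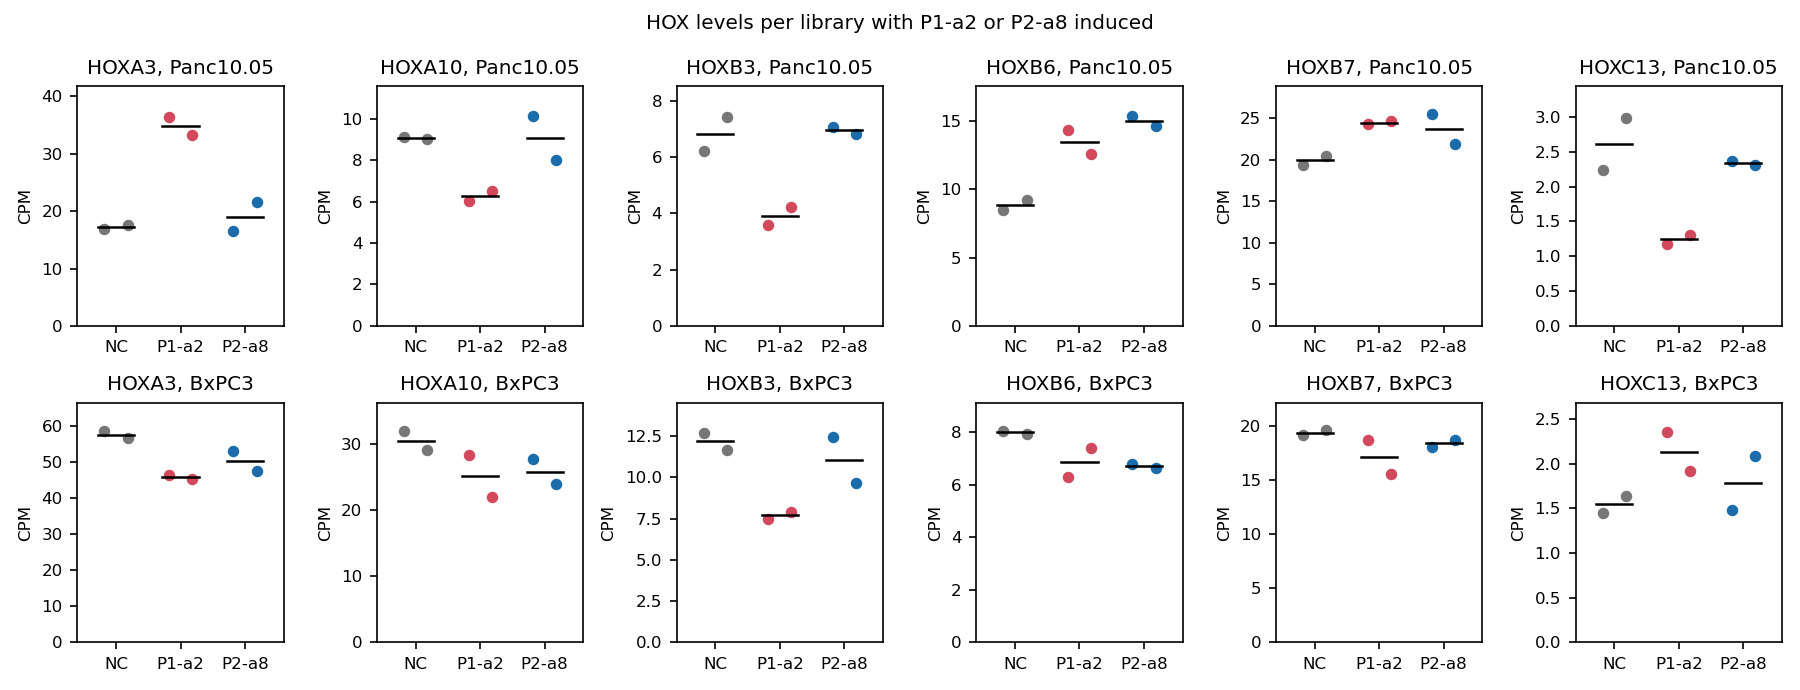
CPM per library (vertical, from 0) for HOXA3, HOXA10, HOXB3, HOXB6, HOXB7 and HOXC13 in Panc10.05 (top) and BxPC3 (bottom), by group. Points are libraries and bars their mean. HOXA3 is highest with P1-a2 in Panc10.05 and lowest with P1-a2 in BxPC3, while HOXB3 is lowest with P1-a2 in both.

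The response to P1-a2 differed between the 2 lines for 5 of 25 members in a joint fit over 19372 genes, where 16.3% of all genes had a higher response in Panc10.05 and 20.1% a lower one. Of the 25, HOXB1, HOXB13, HOXC4, HOXC9 and HOXC11 had 0 reads in every Panc10.05 library. Their difference could not be estimated, so they could not be called for either isoform. The difference, Panc10.05 minus BxPC3, was 1.35 ± 0.133 for HOXA3 (adjusted p = 3.92e-08), which rose in one line and fell in the other. It was 0.83 ± 0.173 for HOXB6 (adjusted p = 0.000481), at 8.07 and 7.95 CPM in BxPC3 controls and 6.31 and 7.41 with P1-a2. It was -1.50 ± 0.345 for HOXC13 (adjusted p = 0.00127), at 1.45 and 1.64 CPM in BxPC3 controls and 2.35 and 1.92 with P1-a2. HOXB7 differed by 0.49 ± 0.14 (adjusted p = 0.00817), and the adjusted p was 0.0652 without BxPC3 P1-a2 replicate 2. The thinly covered HOXA13 differed by -1.24 ± 0.473 (adjusted p = 0.0429), a call lost without any of 5 single libraries. HOXB3, lower in both lines, was not among the 5. For P2-a8 the response of HOXB6 differed, by 1.01 ± 0.173 (adjusted p = 0.000125), where 11.5% of all genes were higher and 11.9% lower. The count for P2-a8 was 2 without Panc10.05 P2-a8 replicate 1, Panc10.05 P2-a8 replicate 2 or BxPC3 P2-a8 replicate 1. With the replicate block HOXA3 was added at 0.33 (adjusted p = 0.038). Line, doxycycline dose, control construct and sequencing project change together in these differences and cannot be told apart.

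Along the HOXB cluster, the difference between the P1-a2 and P2-a8 groups ran nearly in the order of the genes in both lines. In Panc10.05 isoform, doxycycline dose and HNF4A level change together in this difference and cannot be told apart. In BxPC3 the dose was the same, and HNF4A stood at 9.76 and 11.6 CPM with P1-a2 and 12.6 and 14.2 with P2-a8. In Panc10.05 the log2 fold change of P1-a2 over P2-a8 was -0.45 for HOXB2, -0.82 for HOXB3, -0.39 for HOXB4, -0.30 for HOXB5, -0.16 for HOXB6, 0.04 for HOXB7 and 0.27 for HOXB9. In BxPC3 it was -1.36 for HOXB1, -0.74 for HOXB2, -0.52 for HOXB3, -0.42 for HOXB4, -0.23 for HOXB5, 0.03 for HOXB6, -0.10 for HOXB7, 0.29 for HOXB9 and 0.13 for HOXB13. The BxPC3 value of HOXB1 rests on 3 and 2 reads with P1-a2 and 7 and 6 with P2-a8. HOXB2 and HOXB4 were also thinly covered. In Panc10.05 HOXB2 had 10 and 18 reads with P1-a2 and 22 and 15 with P2-a8, and HOXB4 had 9 and 33, and 34 and 19. In BxPC3 HOXB2 had 7 and 15, and 17 and 19, and HOXB4 had 12 and 10, and 13 and 16. HOXB8 did not pass the filter on low counts in either line and is left out. Spearman's rho with paralog number was 0.96 over 7 genes and 0.97 over 9, the highest of the 33 values computed over clusters and comparisons. Against the control no such order was seen in Panc10.05, where the HOXB rho was 0.00 with P1-a2 and -0.43 with P2-a8, and in BxPC3 it was 0.65 and 0.20. These are descriptions across genes of the same libraries, and genes of a cluster are not independent. Only HOXB3 passed the test in each line. The HOXA values of the same comparison gave a rho of -0.52 over 8 genes in Panc10.05 and -0.24 over 8 in BxPC3.

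**Figure D3:**
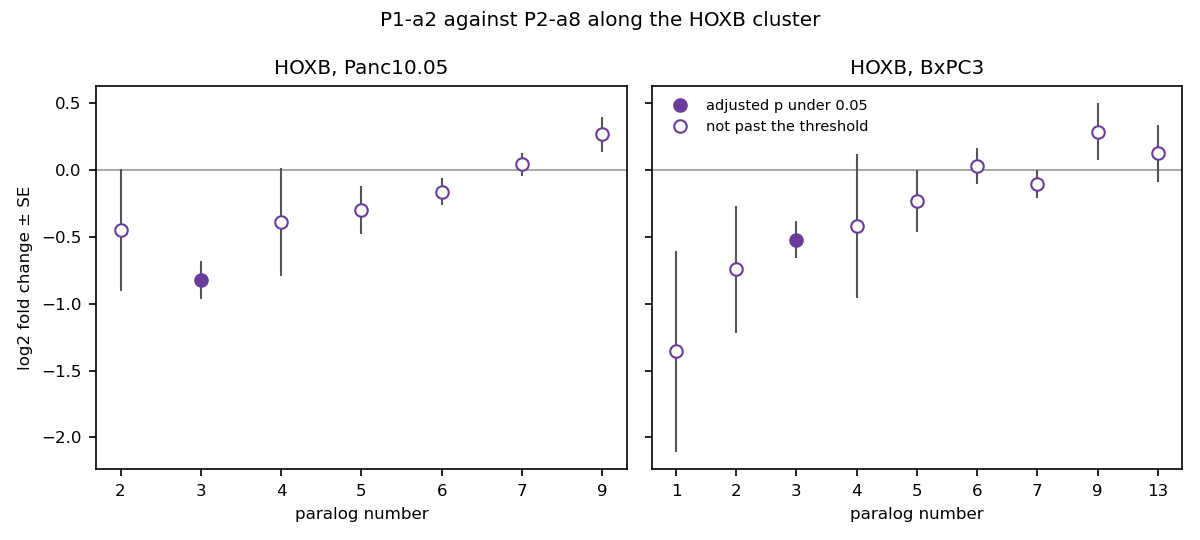
Log2 fold change of P1-a2 over P2-a8 (vertical, ± SE) against paralog number for the tested HOXB genes in Panc10.05 and BxPC3. Filled points had an adjusted p under 0.05. The anterior genes lie below 0 and HOXB9 above 0 in both lines.

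Within HOXA, the balance between the genes up to HOXA9 and those from HOXA10 on moved with P1-a2 in Panc10.05. The first part also holds the central genes and HOXA9, a posterior gene by the classes used here. The summed CPM of the HOXA genes up to HOXA9 divided by that of HOXA10 to HOXA13 was 2.88 and 2.89 in the controls, 7.42 and 6.37 with P1-a2, and 2.56 and 3.78 with P2-a8. HOXA3 makes up most of the upper sum and HOXA10 of the lower one, so the ratio follows these genes. In BxPC3 the ratio lay between 1.82 and 2.13 in all 6 libraries.

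In AsPC-1, repression with the sgDual guides raised genes of HOXA and HOXB. Of 27 members tested, 7 rose, among them HOXA3, HOXA9, HOXA10, HOXB2, HOXB5 and HOXB8, and 1 fell (HOXC8) against sgNC, where 17.8% of the 16992 genes tested were higher and 17.8% lower. The count of higher members lies above that share and the count of lower members below it, which was not tested. All 10 HOXA genes tested had a positive log2 fold change, with a median of 0.57. The median was 0.48 over the 9 HOXB genes, 0.02 over the 8 HOXC genes and 0.00 over all genes. The 39 genes together summed to 442 and 478 CPM with sgNC and to 573 to 594 CPM with sgDual.

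HOXA3 was at 29.7 and 33.3 CPM with sgNC, 52.1 and 53.5 with guide sgDual2, and 63.4 and 64.9 with guide sgDual3. It lay at 23.7 to 36.7 CPM with sgP1 and 18.1 to 30.5 with sgP2, so all 4 sgDual libraries stood above the other 10. The log2 fold change against sgNC was 0.89 ± 0.198 (adjusted p = 0.00339). HOXA9, a posterior gene well known from leukaemia, was at 4.72 and 5.49 CPM with sgNC, 8.41 and 6.62 with sgDual2 and 9.49 and 8.85 with sgDual3, a change of 0.71 ± 0.194 (adjusted p = 0.0104). HOXA10 was at 27.7 and 29.6 CPM with sgNC and at 41.3, 39.8, 41.4 and 39.1 with sgDual, a change of 0.50 ± 0.095 (adjusted p = 0.000968). At the posterior end HOXA11 and HOXA13 changed by 0.10 and 0.16, neither past the threshold.

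In HOXB the largest increase was that of HOXB8, the gene that is nearly silent in the other lines. It was at 30.1 and 31.6 CPM with sgNC and 50.2, 50.4, 50.7 and 47.8 with sgDual, a log2 fold change of 0.69 ± 0.133 (adjusted p = 0.00103). HOXB5 was at 10.6 and 11.7 CPM with sgNC and 16.4, 18.1, 16.1 and 16.0 with sgDual, a change of 0.58 ± 0.116 (adjusted p = 0.00128). HOXB2, an anterior hindbrain gene, was at 24.9 and 24.0 CPM with sgNC and 35.3, 37.9, 33.9 and 33.6 with sgDual, a change of 0.52 ± 0.127 (adjusted p = 0.00487). In all 3 genes the 4 sgDual libraries lay close together and above both controls. Their neighbours HOXB6 and HOXB7 were at 0.16 and -0.20, neither past the threshold. HOXC8 was at 7.86 and 8.25 CPM with sgNC and 6.54, 7.05, 6.03 and 6.32 with sgDual, a drop of 0.31 ± 0.114 (adjusted p = 0.0433). Its call was lost under 8 of 13 alternative settings, among them leaving out either control or either guide.

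HOXA10, HOXB2, HOXB5 and HOXB8 kept their calls in all 13 alternative settings. The 2-fold minimum is not among these 13, and the change of each of these 4 genes lies below it. Without sgNC replicate 1 these 4 were the whole count, and HOXA3 then had an adjusted p of 0.0597. Without guide sgDual3 the count was 5, these 4 and HOXA3. With the replicate block it was 10, with HOXB3 (0.54, adjusted p = 0.00603) and HOXB13 (-0.41, adjusted p = 0.0173) added. The 2 sgNC libraries of HOXB3 were at 59.4 and 75.3 CPM, and its 4 sgDual libraries at 94.5 to 99.98 CPM.

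**Figure D4:**
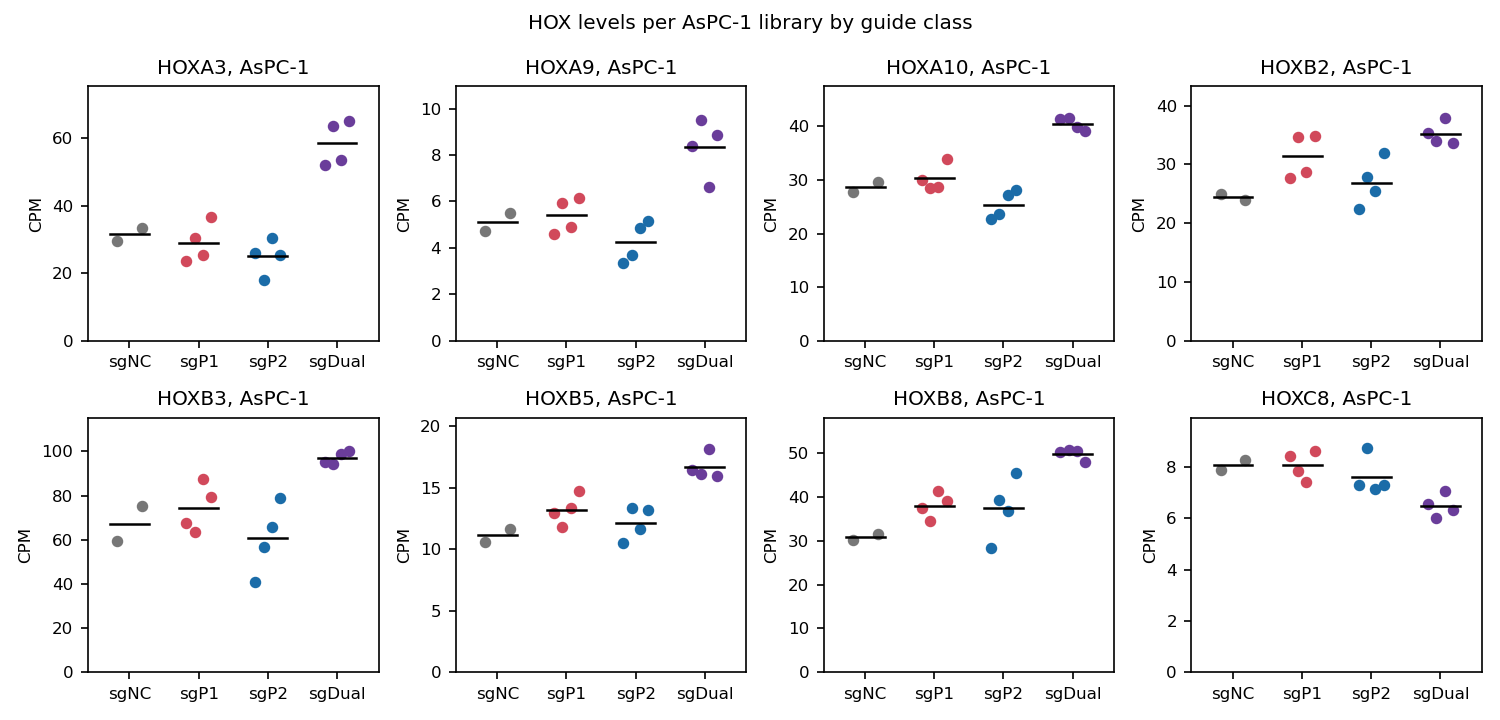
CPM per library (vertical, from 0) in AsPC-1 for HOXA3, HOXA9, HOXA10, HOXB2, HOXB3, HOXB5, HOXB8 and HOXC8, by guide class. Points are libraries (2 for sgNC, 4 for each other class) and bars their mean. In the first 7 genes all sgDual points lie above both sgNC points, and in HOXC8 below them.

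**Figure D5:**
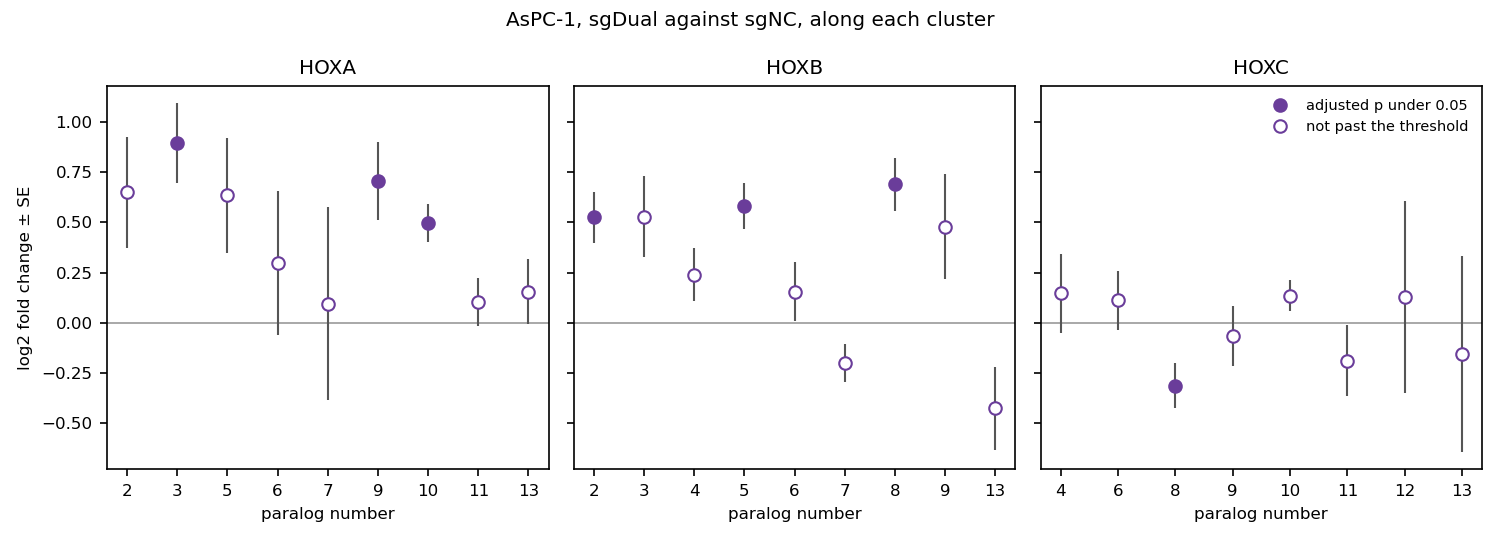
Log2 fold change of sgDual over sgNC (vertical, ± SE) against paralog number for 9 of the tested HOXA genes and all tested HOXB and HOXC genes of AsPC-1. Filled points had an adjusted p under 0.05. Of the HOXA genes drawn the highest value is that of HOXA3, at 0.89, and those of HOXA11 and HOXA13 are 0.10 and 0.16.

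By position, 3 of 7 anterior members, 2 of 9 central and 2 of 11 posterior members rose with sgDual. The central and posterior counts are near the share of 17.8% over all genes, and whether the anterior one differs from it was not tested. The medians were 0.53, 0.16 and 0.13. Along HOXA the log2 fold change fell with paralog number, with a Spearman rho of -0.70 over 10 genes, against -0.37 over 9 HOXB and -0.29 over 8 HOXC genes. These again describe genes that share their libraries. The ratio of the HOXA genes up to HOXA9 over HOXA10 to HOXA13 was 0.431 and 0.460 with sgNC, 0.329 to 0.535 with sgP1, 0.362 to 0.483 with sgP2 and 0.564 to 0.755 with sgDual. Every sgDual library had a higher ratio than every other AsPC-1 library.

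Guides to a single promoter gave few calls among the members, as among all genes. With sgP1, 0 of 27 members passed edgeR's test, where 0.1% of all genes were higher and 0.165% lower. At an unadjusted p under 0.05 there were 4, DESeq2 called 0, and without guide sgP1J the count was 1, HOXC11. HNF4A itself did not pass in this comparison (log2 fold change -0.72, adjusted p = 0.615). With sgP2, HOXC4 was lower, where 1.66% of all genes were higher and 1.76% lower. It was at 3.87 and 3.98 CPM with sgNC and 1.70, 2.56, 2.19 and 2.61 with sgP2, a drop of 0.79 ± 0.198 (adjusted p = 0.0417). At an unadjusted p under 0.05 there were 10 of 27 members, and all 10 HOXA genes tested had a negative log2 fold change, with a median of -0.29 against 0.00 over all genes. With the replicate block 3 members were lower, the others being HOXA5 (-1.21, adjusted p = 0.0462) and HOXB13 (-0.58, adjusted p = 0.0173). No member passed without sgP2D replicate 1, sgP2G replicate 1 or either sgNC library, and 2 passed without sgP2D replicate 2 or sgP2G replicate 2. HOXC4 shares exons with its neighbours HOXC5 and HOXC6, so its counts depend on how shared reads were assigned.

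Between the single-promoter groups HOXC4 and HOXC12 were lower with sgP2 than with sgP1, where 2.17% of all genes were higher and 2.13% lower. The difference was -0.75 ± 0.165 for HOXC4 (adjusted p = 0.0189). The HOXC12 libraries of these groups overlapped. The count of 2 ranged from 0, without sgP2D replicate 1, sgP2G replicate 1 or sgP1J replicate 2, to 6 without guide sgP1E.

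The sgDual group was also compared with each single-promoter group, and these comparisons share the sgDual libraries. Against sgP1, 9 members were higher and 2 lower, where 18.6% of all genes were higher and 19.7% lower, with HOXB7 and HOXC8 the lower members. Against sgP2, 15 were higher and 1 lower, where 22.8% were higher and 23.5% lower. Of the 15, 8 were HOXA genes. HOXA5 was at 0.194 to 0.541 CPM with sgP2 and 0.924 to 1.33 with sgDual, a log2 difference of 1.84 ± 0.258 (adjusted p = 4.39e-05). HOXA13 was at 28.9 to 42.4 CPM with sgP2 and 48.4 to 58.6 with sgDual, a difference of 0.57 ± 0.131 (adjusted p = 0.00274). HOXA3 differed by 1.23 ± 0.159 (adjusted p = 3.5e-05) from sgP2 and by 1.01 ± 0.157 (adjusted p = 0.000251) from sgP1. HOXB7 was the HOXB member that was lower in both. It was at 28.4 to 34.9 CPM with sgP1, 28.6 to 35.5 with sgP2 and 23.1 to 24.4 with sgDual, lower by -0.37 ± 0.0786 (adjusted p = 0.00172) and -0.44 ± 0.0788 (adjusted p = 0.000366). Without guide sgDual3 the count against sgP1 was 6 instead of 11.

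Of the RNA genes inside the clusters, the antisense transcript HOXA10-AS fell with P1-a2 in Panc10.05 and rose with sgDual, as HOXA10 did, and also fell with P2-a8, where HOXA10 did not pass the test. It was at 3.15 and 3.51 CPM in Panc10.05 controls, 1.18 and 1.52 with P1-a2 and 1.79 and 1.44 with P2-a8. It fell by 1.28 ± 0.213 with P1-a2 (adjusted p = 1.43e-06) and by 1.02 ± 0.208 with P2-a8 (adjusted p = 7.46e-05). In AsPC-1 it was at 4.21 and 4.78 CPM with sgNC and 7.92 to 8.58 with sgDual, an increase of 0.87 ± 0.25 (adjusted p = 0.0137). HOXA11-AS rose with sgDual by 0.57 ± 0.166 (adjusted p = 0.0141), while HOXA11 did not pass the test. Over the other genes inside the clusters, 1 rose and 2 fell of 4 tested with P1-a2 in Panc10.05, 0 and 2 of 13 in BxPC3, and 3 and 1 of 16 with sgDual. The shares of all genes higher and lower in the same comparisons were 31.5% and 30.5%, 17.1% and 14.9%, and 17.8% and 17.8%, so the 2 lower genes in BxPC3 and the 3 higher ones with sgDual are near them. HOXA10 and HOXA10-AS overlap, so without a known strand setting their reads cannot be told apart.

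In BxPC3 the HOXD members had 11 counts or fewer in every library, while RNA genes within the cluster were expressed. HAGLR, annotated as antisense, was at 13.2 and 12.8 CPM in the controls, 8.63 and 8.89 with P1-a2 and 10.4 and 10.8 with P2-a8. It fell by 0.57 ± 0.107 with P1-a2 (adjusted p = 0.00196). HAGLROS, annotated as a lincRNA, was at 4.99 to 5.63 CPM in the 6 libraries. In Panc10.05 both were at 0 in all libraries, and in AsPC-1 at no more than 0.0585 CPM.

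Among the TALE partners of the HOX proteins, MEIS1 changed in opposite directions with P1-a2 in the 2 inducible lines. It was at 1.06 and 0.985 CPM in Panc10.05 controls, 4.49 and 3.54 with P1-a2 and 5.15 and 4.54 with P2-a8, a log2 fold change of 1.96 ± 0.207 with P1-a2 (adjusted p = 4.98e-11). In BxPC3 it was at 17.7 and 18.9 CPM in the controls, 11.7 and 10.4 with P1-a2 and 18.2 and 17.0 with P2-a8. Its change with P1-a2 was -0.74 ± 0.105 (adjusted p = 0.000297). In AsPC-1 it was at 10.0 and 13.2 CPM with sgNC, 4.94 to 6.63 with sgP2 and 16.4 to 19.1 with sgDual, changes of -1.0 ± 0.208 (adjusted p = 0.0184) and 0.60 ± 0.211 (adjusted p = 0.0372). The difference of its response between the lines was not tested. Of the list, 2 rose and 4 fell of 8 tested with P1-a2 in Panc10.05, 1 and 4 of 9 in BxPC3, and 2 and 1 of 8 with sgDual. Over all genes 31.5% and 30.5%, 17.1% and 14.9%, and 17.8% and 17.8% were called, and with lists of 8 or 9 genes a departure from these shares was not tested.

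Of 18 Polycomb and Trithorax regulators, 3 rose and 10 fell with P1-a2 in Panc10.05, 1 and 7 in BxPC3, and 3 and 4 with sgDual in AsPC-1. Beside 31.5% and 30.5%, 17.1% and 14.9%, and 17.8% and 17.8% of all genes, the lower counts of both inducible lines lie above the share, the higher ones below it, and the sgDual counts near it. These departures were not tested. EZH2, the methyltransferase that places the silencing mark on histone H3, fell in all 3, by 0.41 ± 0.0679, 0.22 ± 0.0704 and 0.52 ± 0.0825 on the log2 scale (adjusted p = 1.23e-06, 0.031 and 0.000248). KDM6B, a demethylase that removes that mark, rose in all 3. It was at 24.9 and 23.2 CPM in Panc10.05 controls and 54.6 and 58.1 with P1-a2, at 43.3 and 47.6 in BxPC3 controls and 59.2 and 61.3 with P1-a2, and at 15.6 and 18.6 with sgNC and 35.0 to 38.3 with sgDual. The log2 fold changes were 1.23 ± 0.078, 0.41 ± 0.0785 and 1.09 ± 0.111 (adjusted p = 1.44e-17, 0.00225 and 5.96e-06). With P2-a8 KDM6B was at 26.9 and 30.8 CPM in Panc10.05 and 45.8 and 52.2 in BxPC3. Whether these regulators play a part in the HOX changes was not tested.

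Among 10 listed upstream inputs to the clusters, RARG, a retinoic acid receptor, fell with P1-a2 in both lines and rose with sgDual. It was at 70.2 and 73.7 CPM in Panc10.05 controls and 27.7 and 24.8 with P1-a2. In BxPC3 it was at 217 and 207 CPM in the controls and 110 and 91.1 with P1-a2. In AsPC-1 it was at 35.9 and 38.9 CPM with sgNC and 88.7 to 102 with sgDual. The changes were -1.46 ± 0.0751 in Panc10.05 (adjusted p = 1.31e-20), -1.07 ± 0.0808 in BxPC3 (adjusted p = 3.84e-06) and 1.361 ± 0.0927 in AsPC-1 (adjusted p = 1.52e-07). CYP26B1, which degrades retinoic acid, rose with sgDual from 0.444 and 0.771 CPM to between 4.95 and 15.6, and with P1-a2 in Panc10.05 from 3.03 and 2.52 CPM to 7.06 and 7.02. Its log2 fold changes were 4.05 ± 0.45 (adjusted p = 1.88e-05) and 1.34 ± 0.155 (adjusted p = 5.73e-10). In BxPC3 CYP26B1 was at 18.8 and 20.3 CPM in the controls and 15.7 and 18.2 with P1-a2, a change of -0.20 ± 0.11 (adjusted p = 0.188). Of this list 2 rose and 2 fell of 4 tested with P1-a2 in Panc10.05, 0 and 2 of 6 in BxPC3, and 3 and 0 of 5 with sgDual, too few genes to set against the shares over all genes. The part of these genes in the HOX changes was not tested.

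Relatives of the HOX genes outside the clusters included PDX1, the homeobox gene of pancreatic identity, and MNX1. Of 8 listed, 0 rose and 2 fell of 2 tested with P1-a2 in Panc10.05, 1 and 0 of 3 in BxPC3, and 0 and 2 of 3 with sgDual, again too few to set against those shares. With sgDual PDX1 fell by 0.76 ± 0.169 (adjusted p = 0.00277) and MNX1 by 1.25 ± 0.126 (adjusted p = 5.19e-06). Of 13 genes flanking the clusters, 3 rose and 3 fell of 8 tested with P1-a2 in Panc10.05, 3 and 1 of 9 in BxPC3, and 2 and 2 of 10 with sgDual. Those counts are near the shares of all genes in Panc10.05 (31.5% and 30.5%) and with sgDual (17.8% and 17.8%), and in BxPC3 the shares were 17.1% and 14.9%. SKAP2, the gene beyond the anterior end of HOXA, rose by 0.92 ± 0.0728 in BxPC3 with P1-a2 (adjusted p = 4.34e-06), where HOXA3 fell, and by 0.51 ± 0.154 with sgDual (adjusted p = 0.0182), where HOXA3 rose.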

How the data were processed

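The authors deposited 1 table of read counts per gene for each line, raw and not normalized. Per the submitters' processing notes, cutadapt 1.16, STAR 2.7.9a, featureCounts 1.6.3 and DESeq2 1.36.0 on GRCh38 were named. Strand setting and annotation release are not given in the sources used here. Per the labels, poly(A) libraries came from a directional kit.

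Each table was fitted with edgeR 4.0.16 (R 4.3.3; filterByExpr, TMM, quasi-likelihood), Benjamini-Hochberg over all genes tested, threshold 0.05. On simulated data 91% to 97% of 2-fold changes were recovered in the 3 comparisons simulated. The changes were put only into genes above a minimum mean count, under a single fixed spread without guide or replicate effects. This rate therefore does not describe thinly covered members or the spread of the real libraries. Named members passed the threshold without overlap between groups, up to 10 per comparison by size of change, or reached 1 CPM in a group. Members and lists were chosen with earlier results of these data known. Same-numbered samples deviated together in BxPC3 (r of 0.314 to 0.528) and AsPC-1 (0.257 to 0.750). The main fits held group means only and did not use the number, so their p-values ignore any such pairing. The number entered only as the replicate block, an alternative setting. Alternatives were DESeq2 1.42.0, library totals, no filter, only both groups, a 2-fold minimum, the replicate block, and leaving out libraries or guides. Values of 1 HOXA gene and 1 cofactor are not reported here, and that HOXA gene is not drawn, though it stays in the counts and sums.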

Additional observations from a re-analysis of the deposited data

Results flagged for a closer look

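One of 66 groups of 4 AsPC-1 libraries held a library that stood apart. It was HOXC8 with sgP2, where sgP2G replicate 1 was at 8.72 CPM and the other 3 libraries at 7.13 to 7.31. The gap was 0.887 of the group's range. A rate near 1 group in 20 would be flagged by chance alone.

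The response to P1-a2 differed between Panc10.05 and BxPC3, by a test of the difference itself, for HOXA3 (1.35), HOXB6 (0.83), HOXB7 (0.49), HOXA13 (-1.24) and HOXC13 (-1.50) on the log2 scale. The response to P2-a8 differed for HOXB6 (1.01).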

How the results depend on the processing

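Of 61 named changes of a gene in a comparison, none reversed. Calls were lost in 9 of 61 with DESeq2, 8 with no filter, 2 with the replicate block, 1 with library totals, 1 of 53 with only both groups fitted, 48 of 382 when 1 library was left out and 19 of 114 when 1 guide was left out. Counts of members called moved by over 1.5 times as follows. The cause was not tested, except that a 2-fold minimum can only remove calls by construction. With the 2-fold minimum Panc10.05 had 4 (P1-a2 against control), 1 (P2-a8) and 3 (between isoforms), BxPC3 0 (P1-a2) and 0 (between isoforms), AsPC-1 0 (sgP2), 1 (sgDual), 1 (sgP2 against sgP1), 2 (sgDual against sgP1) and 4 (sgDual against sgP2), and the P1-a2 interaction 3. DESeq2 gave 1 for P2-a8 and 4 between isoforms in Panc10.05 and 3 for sgP2. Library totals gave 4 for P1-a2 in BxPC3 and 0 for sgP2. No filter gave 4 between isoforms in Panc10.05, 1 for sgP2 against sgP1 and 2 for the P2-a8 interaction. Fitting only both groups gave 2 for sgP2, 14 for sgDual and 0 for sgP2 against sgP1. The replicate block gave 5, 2 and 3 in BxPC3, 3 for sgP2 and 2 for the P2-a8 interaction, and 8, 3 and 6 in Panc10.05, where same-numbered samples did not deviate together (r of -0.048 to 0.045). In AsPC-1 the block also added HOXA10 for sgP2 against sgP1, HOXB3 for sgDual against sgP1, and HOXA11 and HOXB4 for sgDual against sgP2. Apart from these and the calls given with the results, it changed no call of a member in BxPC3 or AsPC-1. Leaving out a guide gave 1 for sgP1 (without sgP1J), 2 for sgP2 (without sgP2D), 5 for sgDual (without sgDual3), 6 and 1 for sgP2 against sgP1 (without sgP1E, without sgP2D) and 6 for sgDual against sgP1 (without sgDual3).

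Leaving out 1 library gave, in Panc10.05, 6 to 8 for P1-a2, 1 to 3 for P2-a8 and 3 to 6 between isoforms. In BxPC3 it gave 2 to 4, 0 to 0 and 0 to 1. In AsPC-1 it gave 0 to 0 for sgP1, 0 to 2 for sgP2, 4 to 8 for sgDual, 0 to 3 for sgP2 against sgP1, 11 to 13 for sgDual against sgP1 and 13 to 18 for sgDual against sgP2. The interactions ranged from 4 to 6 and from 1 to 2. A lone remaining library is assumed to vary like the other groups. The counts of expressed members, 12, 19 and 21, stayed within 1.5 times at 0.5 CPM, at 2 CPM and with library totals. Depth limits HOXA13, HOXB2, HOXB4, HOXC6 and HOXC10 in Panc10.05, HOXB1, HOXB2 and HOXB4 in BxPC3, and all HOXD genes.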
